A study of Mus musculus with 6 samples.

Results

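The p53 family consists of 3 transcription factor genes in the mouse, Trp53, Trp63 and Trp73. They were chosen by symbol, as 3 of the 20315 named genes in the authors' table of expression levels, and all 3 had a value on every array. The study sorted surface airway epithelium of C57BL/6 mice by flow cytometry and hybridised the RNA of each fraction to microarrays, 6 in all with 2 per cell type. Every gate required EpCAM. Ciliated cells were also positive for CD24 and negative for the lectin GSIβ4, club (secretory) cells were positive for SSEA1, and basal cells were positive for GSIβ4. The strain was the same in the 3 groups, and no transgene or treatment of the mice is named. The labels give neither their age nor their sex.

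The 3 proteins bind closely related DNA sites through a shared type of DNA-binding domain. p53 is a tumour suppressor that answers DNA damage and other stress with cell cycle arrest, repair or death, and it is held in check largely at the protein level by the ubiquitin ligase Mdm2. p63 maintains the basal cells of stratified and pseudostratified epithelia, including those of the airway, where it is a standard marker of these cells. p73 is needed for multiciliated cells in the mouse airway, where it lies downstream of the geminin-like regulators Gmnc and Mcidas and upstream of Foxj1 and other ciliary transcription factors. p63 and p73 are each made in longer and shorter forms from separate starts. The deposited table gives 1 value per gene, taken for each of the 3 genes from 1 probe set on all 6 arrays, so these forms were not told apart.

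All levels are RMA log2 values, in which 1 unit is a 2-fold difference. A level belongs to its own probe set and is compared between cell types, not between genes. No detection calls were used, so a low level is not called absence. In bulk samples of this kind, fewer cells of a type and less RNA per cell cannot be told apart. A difference was called at a limma adjusted p under 0.05 over all genes.

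The labelled cell types were checked against marker genes. Of 12 ciliated markers, 12 had both ciliated arrays above the 4 other arrays. Likewise 5 of 10 club markers were above in both club arrays, and 8 of 10 basal markers in both basal arrays. The share of all genes with 1 cell type above the 4 other arrays was not counted. Pair by pair, arrays failed to overlap in 53% of all genes for ciliated and basal cells, and 51.4% for club and basal cells. For ciliated and club cells this share was 59.3%. The club markers averaged 12.90 and 12.58 on the ciliated arrays, 13.55 and 13.57 on the club arrays, and 11.27 and 11.86 on the basal arrays. The part of club transcripts in the ciliated and basal levels was not tested. The basal markers averaged 8.47 and 8.74 on the ciliated arrays, 9.36 and 9.36 on the club arrays, and 11.51 and 11.54 on the basal arrays. Markers of myoepithelial cells, which also carry p63, averaged 6.90 to 7.14 over the 6 arrays. Of these 8 markers, 1 had both basal arrays above the 4 others, namely Mylk (6.69 and 6.79 in basal cells), and 2 had both ciliated arrays above. The part of myoepithelial cells in the Trp63 difference was not tested. Replicate arrays correlated across genes, which are not independent replicates, with Pearson's r of 0.989 for ciliated cells, 0.987 for club cells and 0.9745 for basal cells. The median over genes lay between 6.79 and 6.92 on the 6 arrays.

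The members fell into 3 patterns. Trp63 was high in basal cells and Trp73 was high in ciliated cells. Trp53 was lower in ciliated than in basal cells, with wide gaps between replicates. Its mean in club cells lay between the means of the other types, and neither step was called. Against basal cells, ciliated cells differed in 3 of the 3 genes, where 17.6% of all genes were called. Club cells differed from basal cells in 1 of the 3, Trp63, against a background of 8.02%. Ciliated cells differed from club cells in 1 of the 3, Trp73, against 15.4%. With 3 members, these counts are a description.

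**Figure D1:**
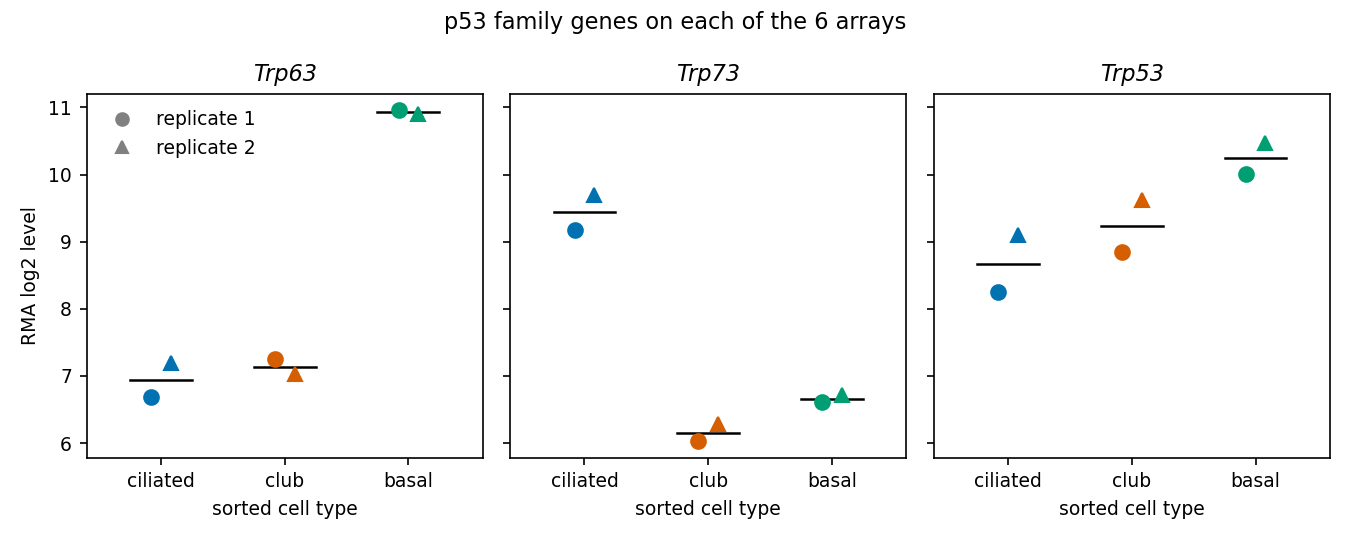
RMA log2 level (vertical axis) of Trp63, Trp73 and Trp53 on each of the 6 arrays, with ciliated, club and basal cells from left to right; circles are replicate 1, triangles replicate 2, and lines the mean of 2 arrays. Trp63 stands near 11 in basal cells and near 7 elsewhere, Trp73 is above 9 in ciliated cells and below 7 elsewhere, and replicate 2 of Trp53 lies above replicate 1 in each cell type.

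Trp63, the basal member of the family, had levels of 6.69 and 7.20 in ciliated cells and 7.25 and 7.03 in club cells, against 10.96 and 10.91 in basal cells. Both basal arrays were high, and no ciliated or club array came within 3 log2 units of them. Arrays failed to overlap in 53% of all genes for ciliated against basal cells and in 51.4% for club against basal cells, so separation alone is common here. The mean Trp63 level was 6.94 ± 0.36 for ciliated cells, 7.14 ± 0.16 for club cells and 10.93 ± 0.04 for basal cells (SD, n = 2 each). Trp63 was thus called as higher in basal cells than in both other types, as 2.79% of all genes were. It was 15.9-fold lower in ciliated than in basal cells, a log2 difference of -3.99 ± 0.20 (SE, 95% interval -4.47 to -3.51, limma adjusted p = 1.53e-05). It was 13.9-fold lower in club than in basal cells (-3.79 ± 0.20, 95% interval -4.27 to -3.31, adjusted p = 0.000156). Both calls held in 13 of 13 alternative settings. The 13 settings, here and below, are not all separate. Leaving out either array of the cell type not compared gives the same fit as using only the arrays of the 2 compared. Among the 10739 genes that were lower in ciliated than in basal cells, Trp63 had the drop of rank 16 by size. Among the 11651 that were lower in club cells it had rank 11.

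Ciliated and club cells did not differ measurably in Trp63. The difference was -0.20 ± 0.20 (95% interval -0.68 to 0.28, adjusted p = 0.618), and its sign turned without ciliated replicate 1 (0.06). The interval leaves room for a difference of up to 0.68 log2 units in favour of club cells. The 2 ciliated arrays were not alike in basal transcripts. Ciliated replicate 2 had more Trp63 than replicate 1 (7.20 and 6.69) and more Krt5, the keratin that marks basal cells (9.28 and 7.91), while the club arrays had Krt5 at 8.89 and 9.27 and the basal arrays at 12.94 and 13.24. The part of basal transcripts in the Trp63 level of the sorted ciliated and club cells was not tested.

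Some fibroblast and leukocyte markers were also highest in basal cells, as Trp63 was. The 8 fibroblast markers averaged 6.22 and 6.30 on the ciliated arrays, 6.18 and 6.14 on the club arrays, and 7.13 and 7.24 on the basal arrays, and 4 of the 8 had both basal arrays above the 4 others. Dcn, a small proteoglycan, was at 6.64 and 8.03 in ciliated and 7.98 and 7.61 in club cells, against 12.30 and 12.13 in basal cells. Fbln1, an extracellular matrix protein, averaged 7.03 in ciliated and 6.67 in club cells, against 9.33 in basal cells. The defining collagen markers Col1a1, Col1a2 and Col3a1 were between 6.74 and 7.21 on all 6 arrays, and Pdgfra between 5.79 and 6.21, so the basal arrays stood at most narrowly above the others in these 4. Of 9 leukocyte markers, 4 likewise had both basal arrays above the 4 others, namely Laptm5, Tyrobp, Itgam and Coro1a. The share of all genes with this order was not counted, so both counts only describe these markers. Arrays failed to overlap in 53% of all genes for ciliated against basal cells and in 51.4% for club against basal cells. Laptm5, a lysosomal membrane protein of blood cells, averaged 6.07 in ciliated and 5.98 in club cells, against 7.40 in basal cells, and Tyrobp, a signalling adaptor of myeloid cells, averaged 6.38 and 6.02, against 7.28. The whole leukocyte list averaged 7.19 and 6.996 on the ciliated arrays, 7.19 and 7.11 on the club arrays, and 7.30 and 7.19 on the basal arrays. The defining marker Ptprc lay between 5.17 and 5.68 on the 6 arrays, and its groups of ciliated and basal arrays overlapped. The part of fibroblasts and leukocytes in the Trp63 difference was not tested.

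**Figure D2:**
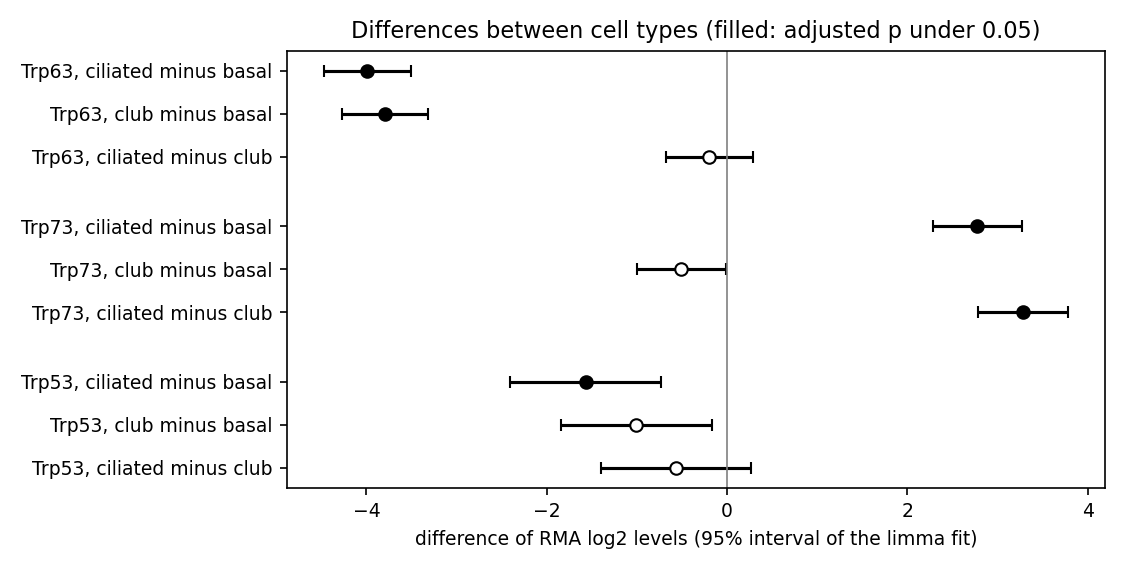
Difference of RMA log2 levels (horizontal axis) for the 3 members in the 3 contrasts, with the 95% interval of the limma fit; filled points have an adjusted p under 0.05. Trp63 is lower in both ciliated and club cells than in basal cells, Trp73 is higher in ciliated cells than in both others, and Trp53 is called in ciliated minus basal alone.

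Genes linked to p63 in basal epithelium were counted next, from a list of 30 keratins, adhesion genes, Notch ligands and epidermal regulators. Of the 30, 21 were lower and 2 higher in ciliated than in basal cells, and 18 were lower and 0 higher in club than in basal cells. Over all genes, 8.28% were called lower and 9.29% higher in ciliated than in basal cells, and 3.67% lower and 4.35% higher in club than in basal cells. The median difference of the list was -1.36 in ciliated minus basal and -1.16 in club minus basal, beside -0.02 and -0.06 over all genes. The list was not chosen independently of what these cells are known to express.

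The 5 widest differences of the list, in both ciliated and club cells relative to basal cells, were those of Krt5, Lamb3, Cdh3, Col17a1 and the Notch ligand Jag2. Krt5 was lower in ciliated and club cells than in basal cells, by log2 differences of -4.50 ± 0.41 and -4.01 ± 0.41 (adjusted p = 0.000242 and 0.00138). Krt14, its usual keratin partner, had 6.73 and 7.02 in ciliated and 6.82 and 6.86 in club cells, against 8.66 and 9.28 in basal cells, a smaller step of -2.09 ± 0.23 and -2.13 ± 0.23 (SE). Lamb3, a chain of the laminin that anchors epithelium to its basement membrane, had 7.19 and 7.37 in ciliated and 7.53 and 7.43 in club cells, against 11.30 and 11.26 in basal cells. Its differences of -4.00 ± 0.15 and -3.80 ± 0.15 were close to those of Trp63. The hemidesmosome collagen Col17a1 (-2.89 ± 0.15 in ciliated and -3.05 ± 0.15 in club cells relative to basal cells) and the cadherin Cdh3 (-3.33 ± 0.17 and -3.47 ± 0.17) were also lower. Perp, a desmosome protein known as a target of both p53 and p63, was lower in ciliated than in basal cells by a smaller amount (-0.82 ± 0.22, adjusted p = 0.0411), a call that 5 of 13 alternatives kept.

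Some genes of the list did not share the Trp63 pattern. Jag2 had 8.14 and 7.87 in ciliated and 7.10 and 6.52 in club cells, against 11.02 and 11.06 in basal cells. Its difference of -4.23 ± 0.22 was the widest of the list in club minus basal, where Krt5 came next, and in ciliated minus basal it was -3.03 ± 0.22. It was lowest in club cells, and ciliated cells exceeded them by 1.19 ± 0.22 (adjusted p = 0.0102), a call that ended without ciliated replicate 1 or club replicate 2 (adjusted p of up to 0.0919). Fermt1, which activates integrins, had 8.66 and 8.83 in ciliated and 6.21 and 6.14 in club cells, against 9.32 and 8.89 in basal cells, so that club cells alone were low. It differed by 2.57 ± 0.19 in ciliated minus club (adjusted p = 0.000113), while ciliated minus basal was not called (-0.36 ± 0.19, adjusted p = 0.282). Chuk, a kinase of the NF-κB pathway with a role in epidermal differentiation, ran the other way, with 9.19 and 9.21 in ciliated and 7.80 and 7.62 in club cells, against 7.60 and 7.37 in basal cells. Between ciliated and club cells, 7 of the 30 were higher and 2 lower in ciliated cells, where 7.93% and 7.46% of all genes were called. That count of 9 fell without either ciliated array or club replicate 1, and calls over all genes fell too in these settings.

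**Figure D3:**
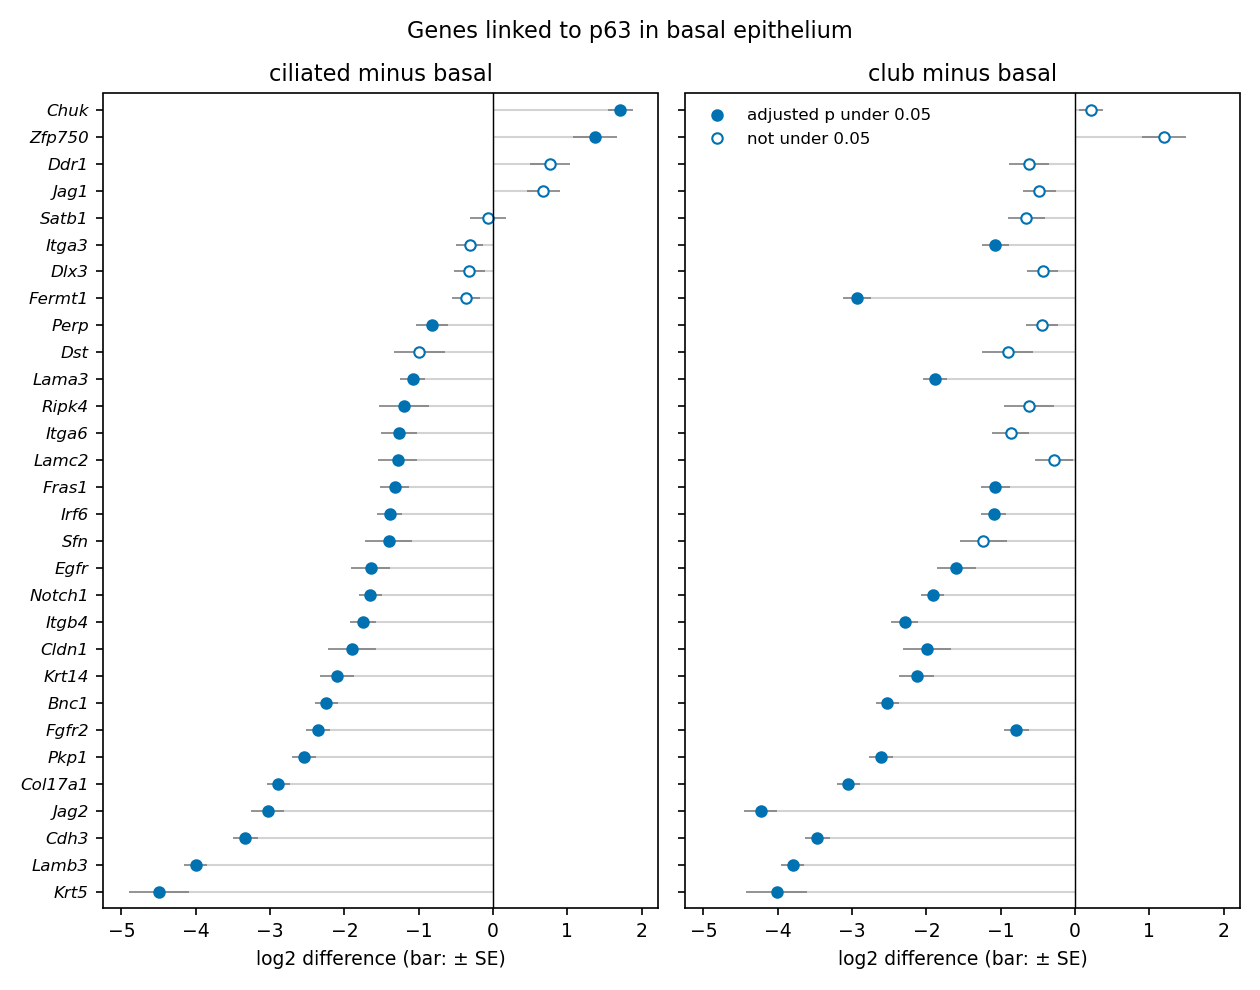
Log2 difference ± SE (horizontal axis) of 30 genes linked to p63 in basal epithelium, in ciliated minus basal (left) and club minus basal (right); filled points have an adjusted p under 0.05. Krt5, Lamb3, Cdh3, Jag2 and Col17a1 lie at -2.89 or below in both panels, and Fermt1 is low in club minus basal alone.

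Trp73, the member tied to multiciliated cells, had levels of 9.18 and 9.70 in ciliated cells and 6.03 and 6.28 in club cells, against 6.61 and 6.71 in basal cells. Both ciliated arrays were high, and no array of another cell type reached 7. The ciliated and club arrays did not overlap in 59.3% of all genes. The mean was 9.44 ± 0.37 for ciliated cells, 6.15 ± 0.18 for club cells and 6.66 ± 0.07 for basal cells (SD, n = 2 each). Trp73 was thus called as higher in ciliated cells than in both other types, as 6.29% of all genes were. It was 6.85-fold higher in ciliated than in basal cells, a log2 difference of 2.78 ± 0.21 (SE, 95% interval 2.28 to 3.27, limma adjusted p = 0.000101). It was 9.74-fold higher in ciliated than in club cells (3.28 ± 0.21, 95% interval 2.79 to 3.78, adjusted p = 5.81e-05). Both calls held in 13 of 13 alternative settings. By size, the difference had rank 385 among 9576 genes higher in ciliated cells than in basal cells and rank 250 among 11277 that were higher in ciliated than in club cells, so many genes moved further.

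Club cells had the lowest mean of Trp73. The arrays of club and basal cells did not overlap, as in 51.4% of all genes. The difference of -0.51 ± 0.21 (95% interval -1.003 to -0.01) had an unadjusted limma p of 0.0453. After adjustment over all genes it was not called (adjusted p = 0.219). The order of the levels was ciliated above basal above club, with the last step not passing the test.

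Trp73 is transcribed from separate starts for its longer and shorter protein forms, and the regions before both starts are shown because the E2F proteins, partners of Gmnc and Mcidas, are known to act at this gene. Each sequence is the 250 bases upstream of a start in RefSeq on GRCm38.p6, minus strand, written 5′ to 3′. Capitals mark the E2F core GCGGGAA or its reverse complement TTCCCGC. The window before the upstream start is chr4:154139876-154140125 and that before the downstream start is chr4:154097174-154097423.
Trp73 upstream start: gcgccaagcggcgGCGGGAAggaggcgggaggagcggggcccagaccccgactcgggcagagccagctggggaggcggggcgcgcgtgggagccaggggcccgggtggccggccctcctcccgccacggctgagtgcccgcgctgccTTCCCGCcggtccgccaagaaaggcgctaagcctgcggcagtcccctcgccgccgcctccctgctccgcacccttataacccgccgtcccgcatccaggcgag
Trp73 downstream start: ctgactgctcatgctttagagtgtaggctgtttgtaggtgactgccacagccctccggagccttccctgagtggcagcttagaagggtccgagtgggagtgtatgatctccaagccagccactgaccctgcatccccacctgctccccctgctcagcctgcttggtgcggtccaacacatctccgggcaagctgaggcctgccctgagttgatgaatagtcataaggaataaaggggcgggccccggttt
The window of the upstream start held 2 matches and that of the downstream start 0. A match was found in 3.82% of 32851 windows of the same length before RefSeq starts. These are matches of letters and not measured sites, and the arrays do not tell from which start the Trp73 transcripts came.

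The network of multiciliogenesis around Trp73 was counted from a list of 27 regulators and ciliary genes. Of these, 14 were higher and 1 lower in ciliated than in basal cells (9.29% and 8.28% of all genes), and 11 were higher and 2 lower in ciliated than in club cells (7.93% and 7.46%). Club minus basal had 3 higher and 0 lower (4.35% and 3.67%). That count fell without club replicate 2 and rose without basal replicate 1, as calls over all genes did. The list had a median difference of 0.996 between ciliated and basal cells, 0.58 between ciliated and club cells and 0.11 between club and basal cells, beside -0.02, 0.04 and -0.06 over all genes. This list, too, was not chosen independently of what ciliated cells are known to express, and Foxj1 is also among the ciliated markers. The counts therefore describe ciliated cells and do not test an effect of Trp73.

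Early genes of the programme showed other patterns. Gmnc, the geminin-like regulator that starts the multiciliated programme, had 7.49 and 7.96 in ciliated cells and 9.47 and 8.86 in club cells, against 6.56 and 6.62 in basal cells. It was thus highest in club cells, where the mean of Trp73 was lowest. Club cells exceeded basal cells in Gmnc by 2.58 ± 0.25 (adjusted p = 0.00114), a call that 13 of 13 alternatives kept. Ciliated minus club was -1.44 ± 0.25 (adjusted p = 0.00724), a call lost when ciliated replicate 1 was left out (adjusted p = 0.0685). Ciliated minus basal was 1.14 ± 0.25 (adjusted p = 0.0179), and leaving out ciliated replicate 2 ended it (adjusted p = 0.147). Mcidas, its relative, was at 7.67 and 7.54 in ciliated cells and 7.56 and 7.62 in club cells, against 7.54 and 7.63 in basal cells, and differed in none of the contrasts (lowest limma adjusted p = 0.968). Ccno, a cyclin-like gene needed for centriole multiplication, was at 8.25 and 8.83 in ciliated cells and 7.40 and 8.45 in club cells, against 8.60 and 8.14 in basal cells. Its groups overlapped, and no contrast was called (lowest limma adjusted p = 0.345). Of the E2F partners, named for the motif above, E2f5 was at 8.51 and 8.59 in ciliated cells and 8.43 and 7.85 in club cells, against 7.47 and 7.39 in basal cells. E2f5 was higher in ciliated than in basal cells by 1.12 ± 0.21 (adjusted p = 0.00948), a call that ended without either ciliated array (adjusted p of up to 0.0840). E2f4 was at 8.63 and 9.16 in ciliated cells and 9.30 and 9.38 in club cells, against 9.01 and 9.23 in basal cells, and was called in no contrast (lowest limma adjusted p = 0.236).

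Of the forkhead, RFX and other transcription factors in the list, Foxj1, Rfx2, Rfx3 and Myb were higher in ciliated cells than in both other types, and Foxn3 was lower. Foxj1, the forkhead factor of motile cilia, had 11.14 and 10.31 in ciliated cells and 7.80 and 7.89 in club cells, against 7.63 and 7.84 in basal cells. Its differences were 2.99 ± 0.27 from basal and 2.88 ± 0.27 from club cells (adjusted p = 0.000234 and 0.000373). The ciliary regulators Rfx2 (1.69 ± 0.21 from basal and 2.32 ± 0.21 from club cells) and Rfx3 (2.39 ± 0.19 and 1.99 ± 0.19) were higher too. Myb, which acts early in the ciliated lineage, had 10.85 and 11.13 in ciliated cells and 8.57 and 8.47 in club cells, against 8.76 and 8.83 in basal cells. All 8 of these calls held in 13 of 13 alternatives. Foxn3, a forkhead factor, ran the other way, with 7.496 and 7.60 in ciliated cells and 8.74 and 8.39 in club cells, against 9.15 and 8.54 in basal cells. It was lower in ciliated than in basal cells (-1.30 ± 0.24, adjusted p = 0.00805) and than in club cells (-1.02 ± 0.24, adjusted p = 0.0260). Both calls ended without either ciliated array, and ciliated minus club also without club replicate 1 or with cyclic loess (adjusted p of up to 0.0698 and 0.157). Foxn4, Rfx4 and Noto were called in no contrast (lowest limma adjusted p = 0.145, for Noto in club minus basal).

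The widest differences of the list lay in ciliary genes. Dnali1, an axonemal dynein light intermediate chain, was 68.4-fold higher in ciliated than in basal cells and 34.0-fold higher than in club cells. Ulk4, a pseudokinase linked to cilia, was at 11.32 and 10.98 in ciliated cells and 6.89 and 7.06 in club cells, against 6.84 and 7.12 in basal cells. Tekt1, a tektin of the axoneme, was higher by 3.59 ± 0.22 than in basal and by 3.09 ± 0.22 than in club cells. Stk36, a kinase needed for the central pair of motile cilia, was higher by 3.15 ± 0.19 and 3.13 ± 0.19.

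The miRNAs of the miR-34 and miR-449 families belong to the same network: they promote multiciliogenesis, and miR-34 genes are known p53 targets. Their values, which were singled out after they had been seen, are those of the gene symbols on the array and not of the mature RNA. The mature 5p forms of miR-34b and miR-449a, as RefSeq gives them on GRCm38.p6 at chr9:51103610-51103632 on the minus strand and chr13:113037549-113037570 on the plus strand, are shown for the seed they share (bases 2 to 8, in capitals).
mmu-miR-34b-5p: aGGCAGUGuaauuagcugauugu
mmu-miR-449a-5p: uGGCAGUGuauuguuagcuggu
Mir34b was at 6.11 and 6.04 in ciliated cells and 5.17 and 5.23 in club cells, against 5.19 and 4.96 in basal cells. It was higher in ciliated than in basal cells by 0.996 ± 0.16 (adjusted p = 0.00421) and than in club cells by 0.87 ± 0.16 (adjusted p = 0.00927). The second call ended without ciliated replicate 1, ciliated replicate 2 or club replicate 1 (adjusted p of up to 0.0742), and the gene was too dim for the setting that left out dim genes. Mir34c lay between 3.84 and 4.08 and Mir449a between 5.49 and 6.27 over the 6 arrays, and no contrast of either was called.

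**Figure D4:**
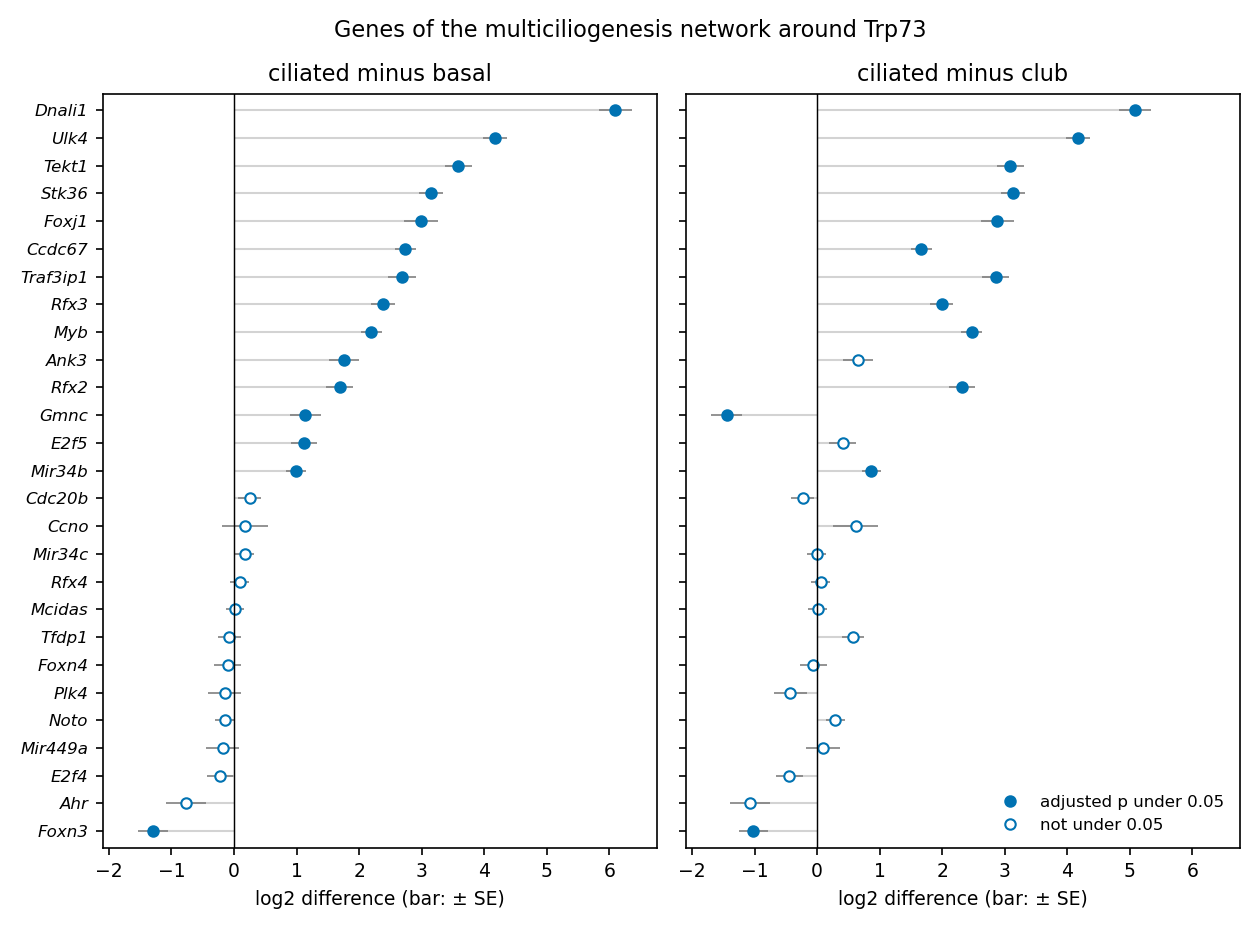
Log2 difference ± SE (horizontal axis) of 27 genes of the multiciliogenesis network around Trp73, in ciliated minus basal (left) and ciliated minus club (right); filled points have an adjusted p under 0.05. Dnali1, Ulk4, Tekt1, Stk36 and Foxj1 are higher in both panels, and Gmnc is higher in the left panel and lower in the right one.

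Trp53 had wider gaps between replicates in each cell type than the other members, and its widest difference between cell types was smaller than theirs. Its levels were 8.25 and 9.10 in ciliated cells and 8.85 and 9.63 in club cells, against 10.01 and 10.47 in basal cells. The basal arrays lay above the 4 others, while the ciliated and club arrays overlapped. Over all genes, ciliated and basal arrays failed to overlap in 53%, and club and basal arrays in 51.4%. The mean was 8.67 ± 0.60 for ciliated cells, 9.24 ± 0.55 for club cells and 10.24 ± 0.32 for basal cells (SD, n = 2 each). Trp53 was 2.97-fold lower in ciliated than in basal cells, a log2 difference of -1.57 ± 0.36 (SE, 95% interval -2.40 to -0.73, limma adjusted p = 0.0209). This call held in 11 of 13 alternatives. For Trp53, ciliated minus basal, it ended without ciliated replicate 1 (-1.14, adjusted p = 0.141) and without basal replicate 2 (-1.34, adjusted p = 0.0709).

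The other Trp53 contrasts were not called. Club minus basal was -1.01 ± 0.36 (95% interval -1.84 to -0.17, unadjusted p = 0.0245, adjusted p = 0.156), and ciliated minus club was -0.56 ± 0.36 (95% interval -1.40 to 0.27, adjusted p = 0.381). In the order of basal above club above ciliated, ciliated and club cells did not differ beyond the spread of the fit, while the interval of club minus basal excluded 0 but the difference was not called after adjustment over all genes. Both differences moved with single arrays. Without club replicate 1, Trp53, club minus basal, was -0.61. Trp53, ciliated minus club, was -0.14 without ciliated replicate 1 and -0.17 without club replicate 2, against -0.99 without ciliated replicate 2 and -0.95 without club replicate 1.

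Replicate 2 exceeded replicate 1 in all 3 cell types for Trp53, as it did for 18.2% of all genes. The gap between replicates was at least as wide as that of Trp53 in 1.08% of genes in ciliated cells, 2.45% in club cells and 22.9% in basal cells. RefSeq also lists a processed copy of the gene, Trp53-ps. Probe positions were not used here, so signal from it cannot be told apart from that of Trp53.

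The authors' deposited table gives each gene a z-score per cell type, whose formula allows at most 1.83. In the authors' deposited table, Trp63 had -0.977 for ciliated cells, -0.840 for club cells and 1.82 for basal cells, next to the top of that scale. For Trp73 the authors' deposited table gave 1.79 for ciliated cells, -1.12 for club cells and -0.671 for basal cells. The scores of Trp53 in the authors' deposited table were -1.24 for ciliated cells, -0.256 for club cells and 1.49 for basal cells.

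Regulators of p53 were called in both directions. Of 30 listed regulators and cofactors in the table, 4 were higher and 3 lower in ciliated than in basal cells, 2 were higher and 0 lower in club than in basal cells, and 3 were higher and 7 lower in ciliated than in club cells. All genes together were called at 17.6%, 8.02% and 15.4% in these contrasts. The count for ciliated minus basal fell without either ciliated array, and that for ciliated minus club without either ciliated array or club replicate 1. The count for club minus basal fell without any single array except basal replicate 1. Calls over all genes fell too in each of these settings. The median difference was -0.20 between ciliated and basal cells, 0.10 between club and basal cells and -0.24 between ciliated and club cells, beside -0.02, -0.06 and 0.04 over all genes.

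Mdm2, the ligase that degrades p53 and is itself a p53 target, was at 10.36 and 10.51 in ciliated cells and 9.23 and 8.82 in club cells, against 9.58 and 8.48 in basal cells. It was thus high in the cells in which the mean of Trp53 was lowest. Its differences were 1.41 ± 0.34 from basal (adjusted p = 0.0283) and 1.41 ± 0.34 from club cells (adjusted p = 0.0310). Both ended when quantile normalization was applied again and without ciliated replicate 1 or ciliated replicate 2, and ciliated minus club also without either club array. Their adjusted p reached 0.181 and 0.184. Wwp1, a ubiquitin ligase that acts on p63 and p53, was at 7.62 and 7.91 in ciliated cells and 9.63 and 9.26 in club cells, against 10.03 and 9.45 in basal cells. It was lower in ciliated than in basal (-1.98 ± 0.24) and than in club cells (-1.68 ± 0.24), which 13 of 13 alternatives kept. Rpl5, a ribosomal protein that can bind Mdm2, was lower in ciliated than in basal cells by a log2 difference of -1.57 ± 0.22 (adjusted p = 0.00241). Chek1, a checkpoint kinase, and Ppp1r13b, a p53 cofactor, were lower in ciliated than in club cells (-1.003 ± 0.15 and -1.15 ± 0.16).

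Target genes of p53 did not move one way with Trp53. Of 39 in the table, 3 were higher and 8 lower in ciliated than in basal cells, 2 were higher and 3 lower in club than in basal cells, and 5 were higher and 6 lower in ciliated than in club cells. Over all genes, 9.29% were called higher and 8.28% lower in the first contrast, 4.35% and 3.67% in the second, and 7.93% and 7.46% in the third. The median differences of the targets were -0.16, -0.04 and -0.17, beside -0.02, -0.06 and 0.04 over all genes. The count for ciliated minus basal fell without either ciliated array, and that for ciliated minus club without either ciliated or either club array. The count for club minus basal fell without either club array and rose without basal replicate 1. Calls over all genes moved in the same direction in each of these settings.

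Single targets ran in opposite directions. Sesn1, a stress-induced inhibitor of growth signalling, was at 7.05 and 7.28 in ciliated cells and 7.61 and 7.66 in club cells, against 9.38 and 9.91 in basal cells, and Dram1, a lysosomal protein linked to autophagy, at 7.24 and 6.86 in ciliated cells and 7.77 and 7.66 in club cells, against 9.60 and 9.34 in basal cells. Both were highest in basal cells, as Trp53 was, and their 4 differences from basal cells held in 13 of 13 alternatives. Polk, a translesion DNA polymerase, was higher in ciliated than in basal cells by 2.31 ± 0.21 and than in club cells by 2.20 ± 0.21. The widest target difference in ciliated minus club was that of Plk2 (-2.44 ± 0.40, limma adjusted p = 0.00579), which 12 of 13 alternatives kept. Plk3 (1.87 ± 0.44) and Btg2 (1.24 ± 0.21), which is also on the dissociation list, were the 2 targets called higher in club than in basal cells. Of 13 alternatives, 6 kept the call of Plk3 and 11 that of Btg2. Trp53inp1, a cofactor induced by p53, was higher in ciliated than in basal cells by 1.44 ± 0.21 (adjusted p = 0.00317).

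Cdkn1a, the cell cycle inhibitor most used as a readout of p53, had 11.69 and 11.75 in ciliated cells and 11.16 and 11.18 in club cells, against 12.49 and 10.46 in basal cells. The basal arrays lay on either side of the 4 others, and no contrast was called (lowest limma adjusted p = 0.603). Phlda3, an inhibitor of Akt induced by p53, also had unlike basal arrays, with 9.62 and 11.28, against which it had 7.59 and 7.86 in ciliated cells and 7.60 and 7.60 in club cells. It was lower in ciliated (-2.73 ± 0.46) and club cells (-2.85 ± 0.46) than in basal cells. The first call ended without ciliated replicate 1 (adjusted p = 0.0605), and the second without either club array (adjusted p of up to 0.0550).

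Cell cycle and dissociation genes were counted because p53 responds to both. Of 27 cell cycle genes in the table, 17 were lower and 0 higher in ciliated than in basal cells, 5 were lower and 0 higher in club than in basal cells, and 7 were lower and 0 higher in ciliated than in club cells. Over all genes, 8.28%, 3.67% and 7.46% were called lower in these contrasts. The median differences of the cell cycle list were -0.90, -0.71 and -0.30, beside -0.02, -0.06 and 0.04 over all genes. Mki67, a marker of cycling cells, had 6.11 and 6.33 in ciliated cells and 7.43 and 6.97 in club cells, against 8.28 and 8.04 in basal cells. Its means had the same order as those of Trp53. The part of cycling cells in the Trp53 differences was not tested. The count for ciliated minus basal fell without either ciliated array, and that for ciliated minus club without either ciliated or either club array. The count for club minus basal fell without any single array except basal replicate 1, without which it rose. Calls over all genes moved in the same direction in each of these settings.

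Of 19 dissociation and immediate early genes, 1 was higher in ciliated than in basal cells, 2 were higher in club than in basal cells and 1 was higher in ciliated than in club cells, with 0 lower. Over all genes, 9.29%, 4.35% and 7.93% were called higher in these contrasts. The median differences of the dissociation list were 0.51, 0.58 and -0.01, beside -0.02, -0.06 and 0.04 over all genes. The list thus lay higher in ciliated and club cells than in basal cells by its median, with few single genes called. The heat-shock gene Hsph1 was called in all 3 contrasts, with 11.46 and 11.27 in ciliated cells and 10.19 and 9.97 in club cells, against 9.05 and 8.84 in basal cells. Leaving out single arrays moved these counts, most in ciliated minus basal and club minus basal without basal replicate 1, where they rose. It moved the calls over all genes as well, not always in the same direction.

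The genes most alike to each member were taken as those with the smallest root mean square difference between log2 profiles over the 6 arrays, each centred on its own mean. The pattern they share with the member, replicate gaps included, follows from this choice and is not a further result. For Trp63 the 8 were Lamb3, Sparc, Axl, Serpinb5, Cd109, Ltbp4, Fads2 and Ehd2, at distances of 0.10 to 0.25. Sparc, a matrix-binding glycoprotein, had 7.12 and 7.54 in ciliated cells and 7.52 and 7.56 in club cells, against 11.15 and 11.06 in basal cells. Axl, a receptor tyrosine kinase, had 6.38 and 6.78 in ciliated cells and 6.79 and 6.79 in club cells, against 10.39 and 10.20 in basal cells. Serpinb5, also called maspin, had the widest step of these genes in ciliated minus basal (-4.32 ± 0.29).

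For Trp73 the 8 were Iqck, Dcdc5, Plk5, Il22ra1, Dnah7a, Nek2, Slc35g3 and Melk, at 0.14 to 0.19. Nek2, a centrosomal kinase, had 9.24 and 9.43 in ciliated cells and 6.29 and 6.32 in club cells, against 6.53 and 6.63 in basal cells. Melk, a kinase usually counted among mitotic genes, had 9.30 and 9.31 in ciliated cells and 6.19 and 6.16 in club cells, against 6.70 and 6.68 in basal cells. Both were thus high in the cells in which the listed cell cycle genes that passed the test were lower. Dnah7a, an axonemal dynein heavy chain, was higher in ciliated than in basal cells by 3.05 ± 0.29.

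For Trp53 the 8 were Mif, Rras, Sfn, Slc9a9, Gatsl3, Akr1c19, Coro1c and Rgma, at 0.15 to 0.26. Mif, a cytokine, had 8.72 and 9.36 in ciliated cells and 9.22 and 10.001 in club cells, against 10.34 and 11.20 in basal cells, so its replicate 2 lay above replicate 1 in each cell type, as for Trp53. Sfn, the epithelial 14-3-3 protein, is on both the list of p53 targets and that of genes linked to p63. Its levels were 10.94 and 11.51 in ciliated cells and 10.96 and 11.83 in club cells, against 12.50 and 12.75 in basal cells. It was lower in ciliated than in basal cells by a log2 difference of -1.40 ± 0.31 (adjusted p = 0.0199), which ended without either ciliated array or basal replicate 2 (adjusted p of up to 0.148), and club minus basal was not called (adjusted p = 0.0599). Ranked by Pearson's r over the same 6 arrays instead, the top 8 shared 4 genes with this choice for Trp63, 1 for Trp73 and 1 for Trp53, so apart from Trp63 the names depend on the measure.

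**Figure D5:**
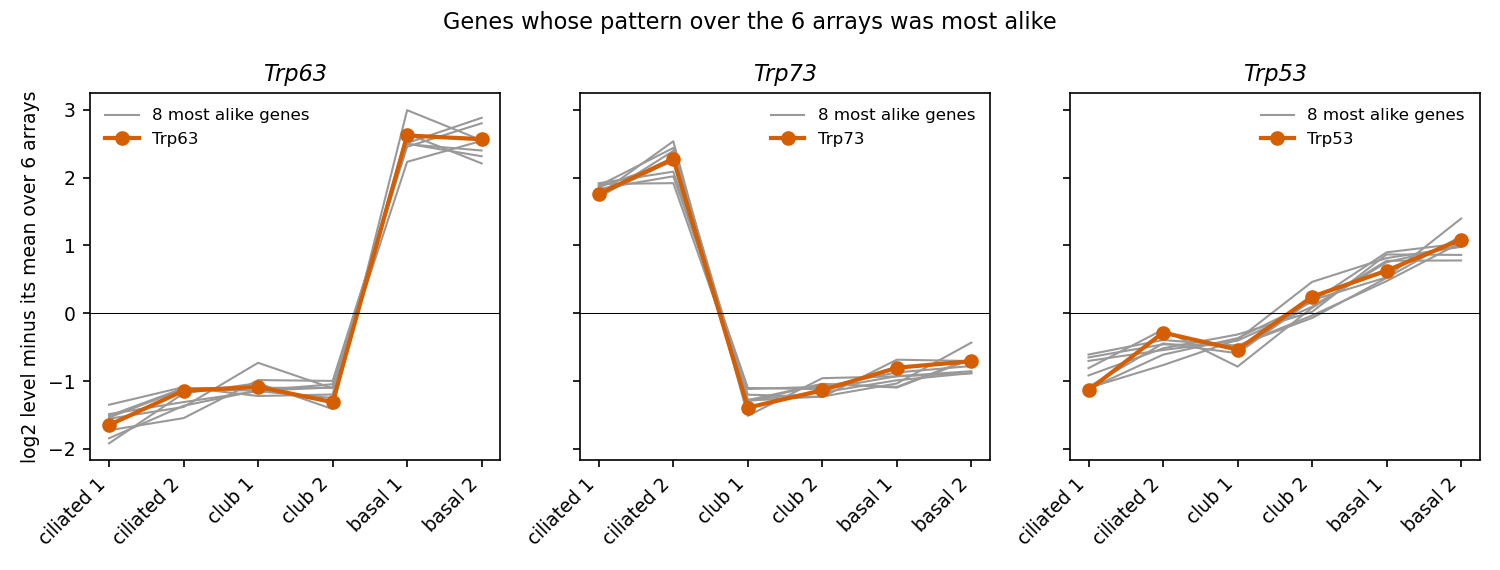
Log2 level minus its mean over the 6 arrays (vertical axis) for each member (orange) and its 8 most alike genes (grey), with the ciliated, club and basal arrays from left to right. The genes of Trp63 step up in basal cells and those of Trp73 are high in ciliated cells. Those of Trp53 are highest in basal cells and share part of its replicate gaps. The genes were chosen for this likeness on the same arrays.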

How the data were processed

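Per the submitters' processing notes, the array values were made with RMA, which corrects background, normalizes by quantiles and summarises probes on a log2 scale; no version is named. Neither the array platform nor the genome build is stated in the labels used here. The authors deposited log2 levels as 1 value per gene symbol and array, and these were tested without further normalization; their z-score per cell type, a score the authors deposited beside them, was only described and equals its presumed formula within 9.35e-14. 1 line without a symbol and 18 columns of another study were left out.

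Levels of the 6 arrays were fitted together, 1 mean for each cell type, with limma 3.58.1 in R 4.3.3, with empirical Bayes variances (prior SD 0.188, total degrees of freedom 7.30). P-values were adjusted by Benjamini-Hochberg over 20315 genes of each contrast, and a difference under 0.05 was called. The fit was tested on simulated data. The labels number biological replicates without naming animals, so p-values measure the spread between these samples, and the number of arrays limits the precision. An exact permutation test of 2 arrays against 2 cannot pass that threshold and was not run.

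The genes followed up were the 3 members, 12 genes named whatever their values, and markers. To these came up to 5 called genes per list and contrast with the widest difference. The 8 genes most alike to each member were added after predicted gene models were passed over. Not all of these genes are named in the text. The members, the lists and the rule were chosen with earlier results of these data known. Genes outside this rule, E2f4, E2f5, Foxn3, Foxn4, Rfx4, Noto and the miRNAs, were chosen after their values were seen. Alternatives were quantile normalization applied again, centring on the array median, cyclic loess, leaving out dim genes, a mean-variance trend, using only the arrays of the 2 cell types compared, a replicate block and leaving out each array. Sequences come from RefSeq tables on GRCm38.p6.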

Additional observations from a re-analysis of the deposited data

How the results depend on the processing

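The Trp63 and Trp73 calls held in 13 of 13 alternatives, between -4.24 and -3.74 for Trp63 in ciliated minus basal, -3.91 and -3.68 in club minus basal, 2.52 and 3.04 for Trp73 in ciliated minus basal, and 3.02 and 3.54 in ciliated minus club. Of 98 called differences of members and of genes followed up, not all of them named in the text, 58 were called in all alternatives. With 2 arrays per cell type, leaving out 1 leaves a lone array assumed to vary like the other groups. Where the array left out belonged to the cell type not compared, the fit equalled that with only the arrays of the 2 cell types. Such settings are not separate alternatives. Where values moved, the cause was not tested. Mir34b was below the limit for dim genes and has no value there.

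No label says that a replicate number pairs samples, and deviations of same-numbered arrays from their group means correlated across genes by 0.05 between ciliated and basal cells, 0.26 between club and basal cells and 0.26 between ciliated and club cells. With the number as a replicate block, calls numbered 4104, 2024 and 3739 in place of 3570, 1629 and 3126 for the contrasts of ciliated with basal, club with basal and ciliated with club cells. Trp53, club minus basal, was then called (-1.01, adjusted p = 0.0126), and the dissociation genes called numbered 4 in ciliated minus basal and 4 in club minus basal. With only the arrays of the 2 cell types, genes called in club minus basal numbered 1050, p53 regulators 0, cell cycle genes 1, and dissociation genes 2 in ciliated minus basal and 3 in ciliated minus club. p53 regulators in club minus basal numbered 1 after quantile normalization again, cyclic loess or a mean-variance trend. Dissociation genes numbered 2 in ciliated minus club after quantile normalization again or median centring, and in ciliated minus basal 4 without dim genes and 3 with the trend, under which cell cycle genes in club minus basal numbered 8.

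Without 1 array at a time, Trp53, ciliated minus basal, ran between -1.99 and -1.14, Trp53, club minus basal, between -1.40 and -0.61, Trp53, ciliated minus club, between -0.99 and -0.14, Trp73, club minus basal, between -0.64 and -0.38, and Trp63, ciliated minus club, between -0.45 and 0.0561. Genes called numbered 1907 to 3807 in ciliated minus basal, 783 to 2534 in club minus basal and 1587 to 3978 in ciliated minus club. In the same order, p53 regulators numbered 2 to 10, 0 to 3 and 4 to 13, p53 targets 5 to 14, 2 to 8 and 3 to 16, cell cycle genes 5 to 20, 0 to 14 and 0 to 7, and dissociation genes 1 to 9, 0 to 9 and 1 to 3. The p63 list in ciliated minus club gave 3 to 9, and the Trp73 network in club minus basal 1 to 5.

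Uncalled differences near 0 turned sign. Mdm2, club minus basal, was 0.0737 with median centring and ran between -0.56 and 0.54 without single arrays. Cdkn1a, ciliated minus basal, was -0.0472 after quantile normalization again and ran between -0.77 and 1.26, and Cdkn1a, club minus basal, between -1.32 and 0.71. Krt5, ciliated minus club, ran between -1.17 and 0.20. Krt14, ciliated minus club, was -0.0474 after quantile normalization again and -0.0454 with median centring, and ran between -0.11 and 0.18. Mcidas, ciliated minus club, was -0.0723 with median centring and ran between -0.0517 and 0.0729, Mcidas, ciliated minus basal, between -0.0467 and 0.0779, and Mcidas, club minus basal, between -0.0404 and 0.0504. Ccno, ciliated minus basal, ran between -0.12 and 0.47, and Ccno, club minus basal, between -0.96 and 0.0780. Foxn3, club minus basal, ran between -0.58 and 0.0267. Sfn, ciliated minus club, ran between -0.61 and 0.26, and Serpinb5, ciliated minus club, between -0.70 and 0.0419.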
